A study of Homo sapiens with 12 samples.

Results

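The genes of the proteasome subunits were followed in C4.2B cells treated with a PI3K inhibitor, an EZH2 inhibitor or both. Members were the genes whose symbol reads PSM, a letter from A to G and a number, with the immunoproteasome genes PSMB8, PSMB9 and PSMB10 set aside. The rule uses names and no measured value. It found 45 of the 23228 genes listed. Of these, 43 passed the filter on low counts, as did 14189 of all genes. The other two were PSMA8, an alpha subunit of the testis, with 0 counts in the 12 libraries, and PSMB11, the thymus form of a catalytic subunit, with 2 counts. Since 0 counts leave room for as many as 3, the limit for PSMA8 lay between 0.0722 and 0.330 CPM depending on the library (counting error alone). CPM is a gene's count relative to its library's total, which was scaled by TMM so that the bulk of the genes lines up between libraries.

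The proteasome is the protease that takes apart ubiquitin-tagged proteins. Its barrel, the 20S core, is a stack of rings of alpha and beta subunits, with the cutting sites on 3 beta subunits and a gate formed by the alpha subunits. The 19S cap sits on the barrel, where its non-ATPase subunits bind and remove ubiquitin and its ring of ATPases unfolds the substrate. Other caps (the PA28 and PA200 activators) can take its place, and dedicated chaperones build the core and the cap before they leave the finished particle. Cells that lose proteasome activity are known to raise subunit genes together through the transcription factor NFE2L1.

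C4.2B is a castration-resistant human prostate cancer line and was the single line used. All cells were kept for 6 days in GSK126 or vehicle, seeded in triplicate plates and treated for 24 h in medium with 10% charcoal-stripped serum, depleted of steroids, in every arm. The 4 arms were vehicle (DMSO), GDC-0941 at 0.5 µM (GDC), GSK126 at 5 µM (GSK) and the pair at these doses (COMBO). GDC-0941 inhibits PI3K, and GSK126 inhibits EZH2, which trimethylates lysine 27 of histone H3. GSK and COMBO cells had received GSK126 during the 6 days, so the time under each agent differed between the arms. Each arm had 3 polyA RNA-seq libraries, A to C, and as the labels do not tie them to separate cultures, p-values measure only the spread between these libraries, which may be technical. GSK and COMBO differences therefore hold pretreatment and treatment together. In bulk RNA, fewer cells of a kind and less RNA per cell cannot be told apart.

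The libraries held 8785218 to 44437751 counts in genes. All 7 prostate luminal markers examined, among them KLK3, were expressed, with a summed level of 3024 to 3282 CPM in DMSO and 4898 to 5293 CPM in COMBO. Of 5 leukocyte and 5 fibroblast markers, 3 averaged at least 1 CPM over the libraries (CD68, COL1A1 and PDGFRB), and CD3E had 0 counts. Of 5 basal or neuroendocrine markers, SYP alone averaged that much. The summed fibroblast markers ranged from 11.5 to 13.4 CPM in DMSO and from 29.8 to 48.2 CPM in COMBO, and the leukocyte markers from 4.84 to 5.70 CPM and from 8.08 to 10.3 CPM. Most of the first sum was COL1A1, at 10.1 to 11.3 CPM in DMSO and 27.5 to 45.9 CPM in COMBO. PDGFRB overlapped between these arms (1.44 to 2.12 CPM and 1.92 to 2.84 CPM). Most of the second sum was CD68, at 4.84 to 5.64 CPM and 7.36 to 9.46 CPM. Some reads fell in no counted feature, a class that may include reads in introns. They were 14.2% ± 0.481 of all reads with DMSO, 15.6% ± 0.268 with GDC, 18.8% ± 0.264 with GSK, and 21.8% ± 1.07 with COMBO (SD, n = 3), without overlap between arms. The part of these reads and of the marker levels in the following results was not tested.

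Proteasome subunit mRNA took a smaller share of the counts with each agent, and the smallest with both. Together the 45 genes took 0.720% ± 0.0122 of gene counts with DMSO, 0.613% ± 0.00982 with GDC, 0.605% ± 0.00575 with GSK, and 0.457% ± 0.00825 with COMBO (SD, n = 3). The highest COMBO library held 0.463% and the lowest DMSO library 0.708%. The libraries of GDC (0.602% to 0.621%) and GSK (0.600% to 0.611%) lay between them and overlapped each other.

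**Figure D1:**
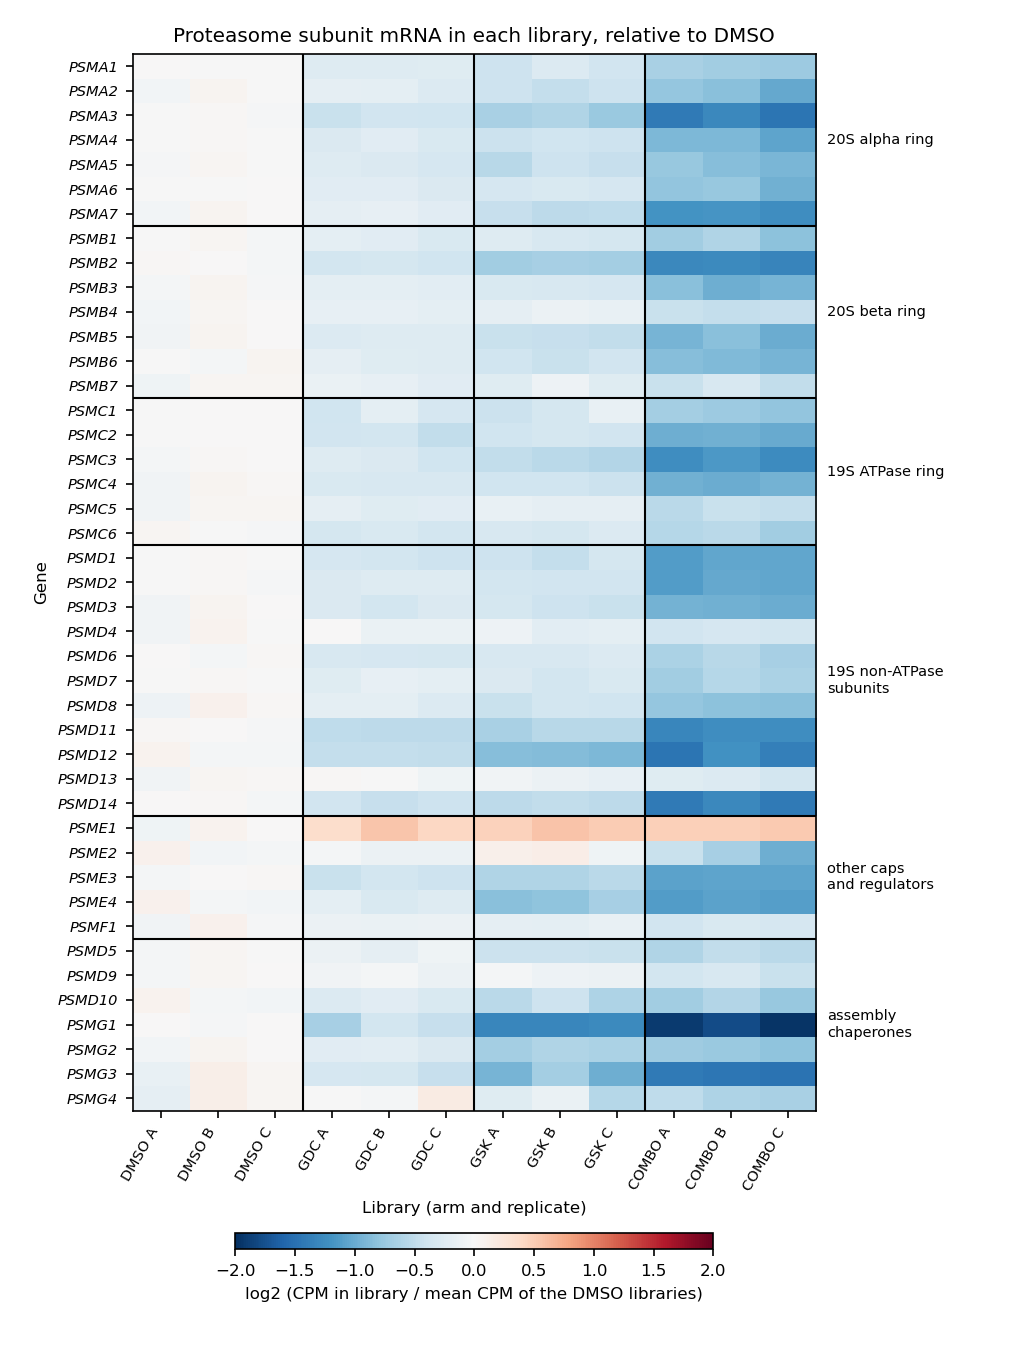
Level of each of the 43 tested proteasome subunit genes (rows, by role) in each of the 12 libraries (columns), as log2 of its CPM over the mean of the DMSO libraries. On average COMBO is lower than both single agents in 42 of the 43 genes, some of which (PSME2 in GSK, PSMG4 in GDC) are near the DMSO level before it, and PSME1 is red in the 9 treated libraries.

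In GDC, 37 of the 43 tested members fell and 1 rose, where 20% of all genes tested were lower and 20% higher (quasi-likelihood test of edgeR at an adjusted p under 0.05, after Benjamini and Hochberg). In GSK, 40 fell and 1 rose, against 35.7% of all genes lower and 40% higher. In COMBO, 42 fell and 1 rose, against 39.2% lower and 43.3% higher. The 3 comparisons share the DMSO libraries. The median log2 fold change of the members was -0.25 in GDC, -0.41 in GSK and -0.84 in COMBO, and that of all genes tested was 0.016, 0.058 and 0.054. With no scaling beyond library totals, the median of all genes shifted to 0.050 in GDC, 0.21 in GSK and 0.26 in COMBO. The members' medians shifted to -0.22, -0.26 and -0.63, so that GDC and GSK lay closer together than under TMM. The members lay 0.27, 0.47 and 0.90 below all genes under either scale, since a change of scale moves all genes by nearly the same amount. Under library totals 23.4% of all genes were higher and 16.6% lower in GDC (16.5% and 24.6% with DESeq2 size factors), 49.2% and 27.7% in GSK, and 52.7% and 30.6% in COMBO. Of the members, 35 were called lower in GDC under library totals, 32 in GSK and 41 in COMBO. The GSK calls lost there were those of PSMB4, PSMB7, PSMC1, PSMC5, PSMD4, PSMD13, PSMF1 and PSMG4.

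Size separated the arms more than the number of calls did. At a log2 fold change of -0.5 or less, 13 members were called in GSK, where 19.5% of all genes were, and 35 in COMBO, where 25.6% were. At 0.5 or more, 27.8% of all genes were called in GSK, with PSME1 the single member at 0.51, and 32.2% in COMBO, where PSME1 missed the size at 0.49. This size call was unstable: over 19 alternatives PSME1 ranged from 0.42 to 0.66 in GSK, reaching 0.5 in 6, and from 0.44 to 0.70 in COMBO, reaching it in 3. In COMBO the middle members ranged from -1.06 to -0.61 (quartiles), and the middle of all genes tested from -0.52 to 0.77.

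COMBO also lay below each single agent. Against GDC, 42 members were lower and 0 higher, where 38% of all genes were lower and 37.9% higher, with a members' median of -0.59. Against GSK, 39 were lower and 0 higher, where 26.9% of all genes were lower and 19% higher, with a median of -0.44. No member was higher in either comparison at an unadjusted p under 0.05 or in DESeq2. With library totals as the scale, 48.5% of all genes were higher and 28.7% lower against GDC, and 24.0% and 21.9% against GSK. Under that scale 36 and 37 members were lower, and PSME1 was called higher against GDC (0.23, adjusted p = 0.00129 by edgeR), as it was without GDC library B (0.15, adjusted p = 0.0356 by edgeR). PSMD10 had the weakest call against GSK (-0.16, adjusted p = 0.0452 by edgeR), and 16 of 19 alternative settings did not make it.

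Library by library, the 3 COMBO values of 42 members all lay below the 3 DMSO values, which 39.0% of all genes tested did. In GDC 38 members and in GSK 40 members were separated downward in this way, against 24.8% and 36.3% of all genes. Across the 12 libraries, 40 members had a Pearson r of at least 0.9 with the mean of the other members on the log2 CPM scale, PSMA3 the highest at 0.998. The points are 4 arms of 3 libraries, so r mostly follows the differences between arms. PSME2 had an r of 0.79, PSMG4 of 0.83 and PSME1 of -0.73.

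**Figure D2:**
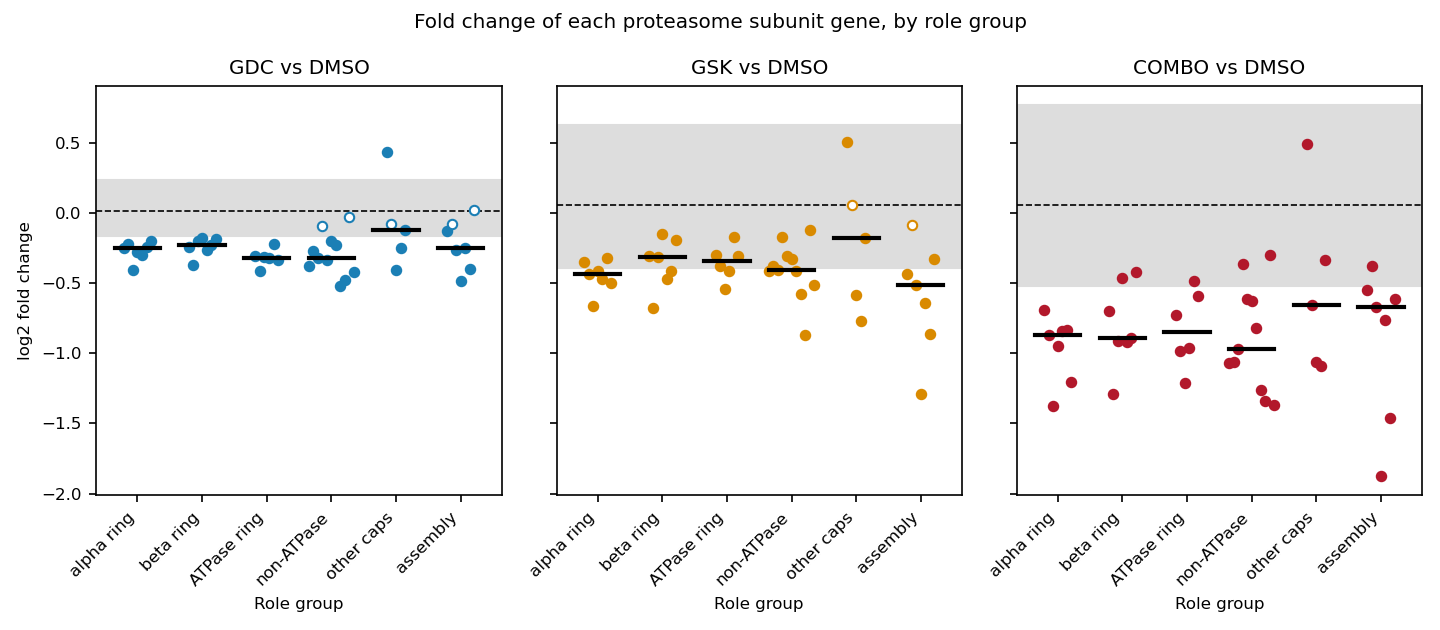
Log2 fold change against DMSO (y axis) of each tested member in the 6 role groups (x axis), for GDC, GSK and COMBO. Filled points passed the test, thick bars are group medians, and the dashed line and grey band are the median and quartiles of all genes tested. In COMBO the group medians lie between -0.97 and -0.65, below the band.

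The alpha ring fell as a whole. All 7 tested alpha genes were lower in each arm, with medians of -0.25 in GDC, -0.44 in GSK and -0.87 in COMBO. PSMA3, which forms part of the gated outer ring, had 221, 226 and 217 CPM with DMSO, 162, 170 and 167 with GDC, 141, 145 and 132 with GSK, and 83.3, 90.9 and 80.3 with COMBO. No arm overlapped another. Its log2 fold change in COMBO was -1.38 ± 0.05 (SE, adjusted p = 1.94e-15).

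PSMA7, another alpha subunit, had 346, 373 and 359 CPM with DMSO, 317, 319 and 306 with GDC, 261, 250 and 252 with GSK, and 157, 159 and 152 with COMBO. No arm overlapped another. Its log2 fold change was small in GDC (-0.20 ± 0.04 SE, adjusted p = 9.11e-04) and large in COMBO (-1.21 ± 0.04 SE, adjusted p = 8.47e-16). PSMA1 had the smallest COMBO change of the ring, from 221 to 225 CPM in DMSO to 135 to 142 CPM, a log2 fold change of -0.69 ± 0.04 (SE).

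The beta ring carries the cutting sites. All 7 tested beta genes were lower in each arm, with medians of -0.23, -0.32 and -0.89. The GSK call of PSMB4 was lost under library totals. PSMB5, the chymotrypsin-like subunit that bortezomib blocks, had 134, 147 and 142 CPM with DMSO, 117, 118 and 118 with GDC, 103, 103 and 100 with GSK, and 73.7, 79.3 and 71.0 with COMBO. The arms were in separate ranges, and COMBO was lower than DMSO on the log2 scale by -0.92 ± 0.05 (SE, adjusted p = 8.97e-13). PSMB6, the caspase-like subunit, moved by a similar amount, from 105, 102 and 109 CPM in DMSO to 58.5, 57.1 and 55.0 in COMBO (-0.89 ± 0.05 SE, adjusted p = 7.84e-13).

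PSMB7, the trypsin-like subunit, moved least of the ring. It had 82.0, 89.7 and 89.0 CPM with DMSO, 78.8, 77.6 and 74.2 with GDC, 73.6, 81.0 and 73.6 with GSK, and 64.1, 69.2 and 61.7 with COMBO. GDC and GSK overlapped, and COMBO was below all the others at -0.42 ± 0.06 (SE, adjusted p = 8.86e-07). Its call in GSK (-0.20 ± 0.06 SE, adjusted p = 0.00479) was lost under library totals. PSMB2, a beta subunit with no cutting site, had the largest change of the ring, -1.29 ± 0.04 (SE, adjusted p = 2.51e-16), from 211 to 220 CPM in DMSO to 87.0 to 89.5 CPM in COMBO. The difference between these genes was not tested.

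Within a library, the mean log2 CPM of the alpha genes exceeded that of the beta genes by 0.57 ± 0.012 with DMSO, 0.53 ± 0.010 with GDC, 0.47 ± 0.011 with GSK, and 0.40 ± 0.032 with COMBO (SD, n = 3). The DMSO libraries (0.56 to 0.58) and COMBO libraries (0.36 to 0.42) did not overlap. This difference was not tested.

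The ATPases of the cap, which unfold the substrate, were also lower in each arm. All 6 were called, with medians of -0.32 in GDC, -0.34 in GSK and -0.85 in COMBO. The GSK calls of PSMC1 and PSMC5 were lost under library totals. PSMC3 had 250, 262 and 259 CPM with DMSO, 215, 210 and 196 with GDC, 182, 177 and 172 with GSK, and 109, 116 and 107 with COMBO, in 4 separate ranges. Its COMBO change was -1.21 ± 0.05 (SE, adjusted p = 4.89e-15). PSMC2 followed at -0.98 ± 0.04 (SE), but overlaps 2 other counted genes, PMPCB and SLC26A5, and its counts are uncertain. PSMC5 changed least (-0.48 ± 0.05 SE, adjusted p = 4.79e-09), from 162, 174 and 174 CPM in DMSO to 117, 125 and 123 in COMBO, and overlaps FTSJ3. PSMC1 has 13 named pseudogenes, so that its counts may be split, and it had 42.0 to 42.6 CPM in DMSO and 24.4 to 26.6 CPM in COMBO. The counts of PSMA6, with 4 named pseudogenes, and of PSMA2 and PSMD10, with 3 each, are uncertain in the same way.

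The non-ATPase subunits spread widest among the cap genes. In GDC 9 of 11 were lower, and in GSK and COMBO all 11 were, with medians of -0.32, -0.41 and -0.97. The GSK call of PSMD4 was lost under library totals. PSMD14, the enzyme that strips ubiquitin chains from the substrate, had 136, 137 and 132 CPM with DMSO, 103, 98.2 and 101 with GDC, 93.6, 95.6 and 93.6 with GSK, and 50.5, 55.2 and 50.5 with COMBO. The arms did not overlap, and the COMBO change was -1.37 ± 0.05 (SE, adjusted p = 1.01e-15). PSMD12, a subunit of the lid of the cap, also had 4 separate ranges, with 169, 157 and 157 CPM with DMSO, 115, 116 and 114 with GDC, 89.2, 88.4 and 86.3 with GSK, and 58.3, 69.4 and 62.0 with COMBO. Its GSK change was -0.87 ± 0.06 and its COMBO change -1.34 ± 0.06 (SE, adjusted p = 2.95e-11 and 1.26e-14).

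PSMD2, a scaffold of the base of the cap, had 744, 765 and 741 CPM with DMSO, 613, 626 and 626 with GDC, 584, 578 and 573 with GSK, and 347, 369 and 364 with COMBO (-1.06 ± 0.04 SE, adjusted p = 7.30e-16). The drop from GSK to COMBO was larger than that from DMSO to GSK. At the other end stood PSMD13, a lid subunit, with 189, 204 and 202 CPM with DMSO, 201, 198 and 187 with GDC, 188, 184 and 177 with GSK, and 167, 164 and 153 with COMBO. GDC overlapped DMSO (-0.03 ± 0.05 SE, adjusted p = 0.715), and COMBO was lower by -0.30 ± 0.05 (SE, adjusted p = 9.64e-06), a call lost under library totals. Its GSK call (-0.12 ± 0.05 SE, adjusted p = 0.0309) was lost under library totals, where the value turned to 0.033, and without DMSO library C or GSK library C.

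The core and the cap moved side by side. The mean log2 CPM of the 14 core genes exceeded that of the 17 cap genes by 0.12 ± 0.0046 with DMSO, 0.18 ± 0.0047 with GDC, 0.11 ± 0.025 with GSK, and 0.11 ± 0.045 with COMBO (SD, n = 3). GDC (0.17 to 0.18) lay above the others, and the COMBO libraries (0.065 to 0.16) overlapped DMSO (0.12 to 0.13).

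The other caps and regulators went both ways, with 4 of 5 lower and 1 higher in COMBO and a median of -0.65. PSME3, the nuclear PA28 gamma activator, had 274, 285 and 286 CPM with DMSO, 208, 218 and 211 with GDC, 185, 187 and 193 with GSK, and 134, 135 and 136 with COMBO (-1.06 ± 0.04 SE, adjusted p = 3.92e-15). PSME4, the PA200 activator, was lower in GSK than in GDC libraries without overlap, with 256, 235 and 232 CPM with DMSO, 211, 194 and 201 with GDC, 135, 138 and 151 with GSK, and 111, 114 and 113 with COMBO. Its log2 fold changes were -0.25 ± 0.05 in GDC, -0.77 ± 0.05 in GSK and -1.09 ± 0.05 in COMBO (SE, adjusted p = 6.58e-04, 6.73e-11 and 1.05e-13). PSME3 overlaps BECN1 and PSME4 overlaps ACYP2. PSMF1, the inhibitor protein PI31, changed least, from 122, 136 and 126 CPM in DMSO to 98.3, 104 and 101 in COMBO (-0.34 ± 0.05 SE, adjusted p = 1.86e-06).

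PSME1 was the exception among the 43. It encodes PA28 alpha, which pairs with the product of PSME2 in an interferon-induced activator ring. PSME1 had 42.6, 47.1 and 45.6 CPM with DMSO, 57.3, 66.0 and 59.9 with GDC, 62.2, 67.2 and 64.0 with GSK, and 63.0, 63.1 and 65.0 with COMBO. Every treated library was above every DMSO library, and the 3 treated arms overlapped. The log2 fold changes were 0.43 ± 0.06 in GDC, 0.51 ± 0.06 in GSK and 0.49 ± 0.06 in COMBO (SE, adjusted p = 1.05e-05, 2.07e-07 and 1.50e-07), and the call held under all 19 alternatives in each arm.

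Its partner PSME2, singled out after its values were seen, took another course. It had 34.1, 30.9 and 31.2 CPM with DMSO, 31.1, 29.7 and 29.6 with GDC, 34.3, 35.1 and 30.1 with GSK, and 23.6, 20.3 and 16.3 with COMBO. GDC and GSK overlapped DMSO (-0.08 ± 0.09 and 0.06 ± 0.09 SE, adjusted p = 0.524 and 0.564), and COMBO lay below all of them (-0.65 ± 0.09 SE, adjusted p = 1.83e-06). Under library totals PSME2 was called higher in GSK (0.21, adjusted p = 0.0454). The genes lie 4394 bases apart on chromosome 14, PSME1 at chr14:24136163-24138967 on the plus strand and PSME2 at chr14:24143362-24147570 on the minus strand (hg38, GENCODE version 44). PSME2 overlaps RNF31 and has 6 named pseudogenes, so its counts are uncertain.

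**Figure D3:**
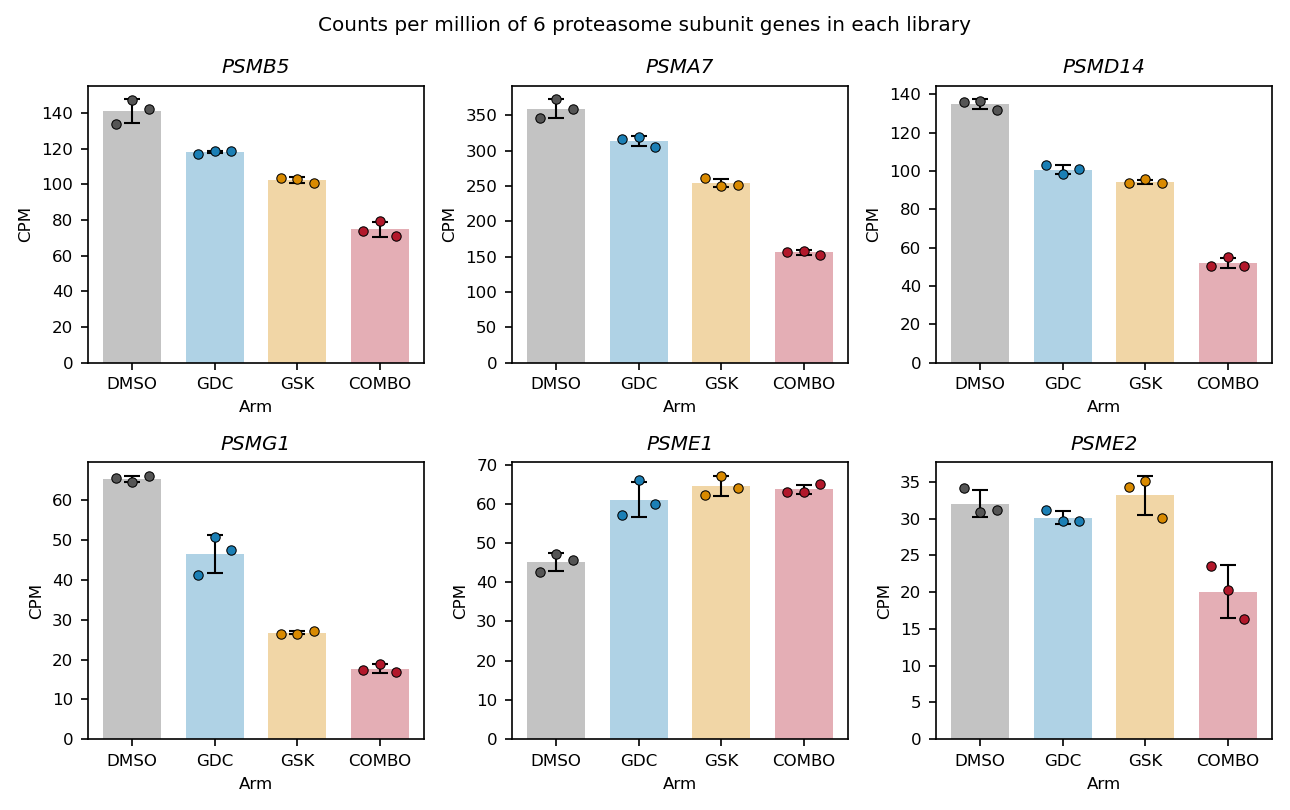
CPM (y axis, from 0) of 6 members in the 4 arms (x axis). Points are libraries, bars are means and error bars SD (n = 3). PSMB5, PSMA7, PSMD14 and PSMG1 step down to COMBO, PSME1 is higher in the 3 treated arms, and PSME2 is lower in COMBO, at 16.3 to 23.6 CPM.

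The chaperones that build the particle held the largest fall of all members and some of the smallest. In GDC 5 of 7 were lower, in GSK 6 and in COMBO 7, with medians of -0.25, -0.51 and -0.67. PSMG1, which pairs with PSMG2 to start the alpha ring, had 65.6, 64.6 and 66.1 CPM with DMSO, 41.3, 50.7 and 47.5 with GDC, 26.5, 26.5 and 27.2 with GSK, and 17.3, 19 and 16.8 with COMBO. The arms lay in 4 separate ranges, with most of the drop already present in GSK. Its log2 fold changes were -0.49 ± 0.06 in GDC, -1.29 ± 0.07 in GSK and -1.88 ± 0.07 in COMBO (SE, adjusted p = 6.95e-06, 2.03e-12 and 1.82e-15), the last being 0.272 times the DMSO level. The gene lies at chr21:39174769-39183488 on the minus strand and overlaps no other counted gene.

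PSMG3, a partner of PSMG4 in ring assembly, had 36.1, 43.4 and 41.2 CPM with DMSO, 31.8, 31.7 and 29.1 with GDC, 21.1, 25.1 and 20.3 with GSK, and 15.0, 14.7 and 14.5 with COMBO (-1.46 ± 0.08 SE, adjusted p = 1.22e-12). PSMD9, a chaperone of the cap, was at the low end, with 75.9, 79.4 and 77.7 CPM with DMSO, 74.1, 75.3 and 71.8 with GDC, 75.7, 72.2 and 71.9 with GSK, and 60.1, 62.0 and 57.3 with COMBO. It passed the test in COMBO (-0.38 ± 0.05 SE, adjusted p = 5.34e-07), with adjusted p of 0.219 in GDC and 0.115 in GSK, where 8 of 19 alternatives called it lower (adjusted p from 0.0157 to 0.280). PSMG4 was the least counted member tested, at 9.05 to 11.1 CPM in DMSO and 6.55 to 7.20 CPM in COMBO, and overlaps SLC22A23 and TUBB2B.

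The mean log2 CPM of the core exceeded that of the chaperones by 1.87 ± 0.024 with DMSO, 1.84 ± 0.031 with GDC, 2.05 ± 0.050 with GSK, and 1.88 ± 0.021 with COMBO (SD, n = 3). GSK (2.01 to 2.11) lay above all other libraries, and COMBO (1.86 to 1.90) overlapped DMSO (1.85 to 1.90).

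Per length of merged exons, PSMA7 was the highest member in DMSO, at 205 CPM per kb, and PSMG4 the lowest tested at 0.983. With the canonical transcript in place of the merged exons these levels were 374 and 13.0 CPM per kb, and the lowest was PSMC1 at 9.65. The catalytic subunits were ordered PSMB5, PSMB6 and PSMB7 in either case, at 91.1 ± 4.28, 72.6 ± 2.41 and 48.6 ± 2.38 CPM per kb of merged exons (SD, n = 3), without overlap. With canonical lengths PSMB5 (128 to 141) and PSMB6 (124 to 132) overlapped.

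Promoter sequences were read from RefSeq (GRCh38.p14), 250 bases before to 50 bases after the start, for the 39 of 45 genes that the table held. The letters TGACNNNGC, which lie within the antioxidant response element that NFE2L1 and NFE2L2 recognise, stood on either strand in 12 of the 39 promoters (30.8%) and in 13.6% of 27305 promoters of the same length. CCAAT stood in 18 (46.2%, against 35.7% of all) and CACGTG, an E-box, in 3 (7.69%, against 7.43%). A match describes letters and is no site of binding. Stretches of 200 bases, from 250 to 51 before the start, are shown on the strand of the gene, with TGACNNNGC alone in capitals. They belong to the member that fell most, PSMG1, to PSMD12, whose fall in GSK was the largest among the cap subunits, to PSMB3, a beta subunit, and to PSME1, the member that rose.
PSMG1: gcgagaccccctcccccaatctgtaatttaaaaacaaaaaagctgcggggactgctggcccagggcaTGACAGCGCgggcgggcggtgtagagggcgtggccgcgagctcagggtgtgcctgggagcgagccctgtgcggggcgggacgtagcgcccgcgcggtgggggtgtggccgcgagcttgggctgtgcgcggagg
PSMD12: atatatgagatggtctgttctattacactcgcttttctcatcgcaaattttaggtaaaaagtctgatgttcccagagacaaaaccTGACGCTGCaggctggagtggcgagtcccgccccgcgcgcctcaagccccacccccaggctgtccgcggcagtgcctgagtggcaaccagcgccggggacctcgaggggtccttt
PSMB3: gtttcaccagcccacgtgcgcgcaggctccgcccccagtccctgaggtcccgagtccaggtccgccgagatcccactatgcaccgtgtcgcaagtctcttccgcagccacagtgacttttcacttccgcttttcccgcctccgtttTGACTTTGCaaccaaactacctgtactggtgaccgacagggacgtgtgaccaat
PSME1: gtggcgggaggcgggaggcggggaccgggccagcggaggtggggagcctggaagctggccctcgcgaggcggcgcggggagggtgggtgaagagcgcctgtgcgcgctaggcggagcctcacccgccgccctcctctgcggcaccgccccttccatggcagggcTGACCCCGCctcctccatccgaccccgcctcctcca
The stretch of PSMG1 is chr21:39183502-39183701 (minus strand), that of PSMD12 chr17:67366628-67366827 (minus strand), that of PSMB3 chr17:38752491-38752690 (plus strand) and that of PSME1 chr14:24135944-24136143 (plus strand).

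In the stretches shown, CCAAT also stands in PSMG1 and PSMB3 and CACGTG in PSMB3, in lower case. The TGACNNNGC match begins 183 bases before the start in PSMG1, 165 in PSMD12, 104 in PSMB3 and 86 in PSME1. So the letters occur both in the member that fell most and in the one that rose. Over the 37 tested members with a promoter sequence, the median log2 fold change in COMBO was -0.94 for the 12 with the letters and -0.83 for the 25 without, with ranges of -1.88 to 0.49 and -1.38 to -0.30. In GSK the medians were -0.41 and -0.38. For CCAAT the COMBO medians were -0.92 with the letters (17 members) and -0.71 without (20 members). These are descriptions without a test.

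The interaction compares COMBO with the sum of the GDC and GSK changes on the log2 scale. It was negative past the threshold for 17 of 43 members and positive for 0, where 16.5% of all genes tested were negative and 4.86% positive (edgeR quasi-likelihood test). No member was positive at an unadjusted p under 0.05 or in DESeq2. The members' median was -0.18 and that of all genes -0.063. With DESeq2 size factors in edgeR, 12.9% of all genes were negative and 7.01% positive, and 15 members were negative. The count of negative members fell to 8 without DMSO library A, 11 without DMSO B, 7 without DMSO C, 8 without GDC A, 7 without GDC B, 10 without GDC C, 8 without GSK A, 8 without GSK B and 8 without COMBO A, and to 7 with no filter on low counts. The share of all genes that was negative fell as well. In the same order it was 9.13%, 11.5%, 8.99%, 9.05%, 8.96%, 9.88%, 8.94%, 8.86% and 9.93%, and 6.62% with no filter. In 7 members, PSMA7, PSMB3, PSMC3, PSMD2, PSMD14, PSME1 and PSME2, the call held in all 18 alternatives.

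PSMA7 had the smallest adjusted p, with an interaction of -0.51 ± 0.06 (SE, adjusted p = 4.99e-06). PSMD2 followed at -0.41 ± 0.05, PSMD14 at -0.43 ± 0.07, PSMB3 at -0.40 ± 0.07 and PSME1 at -0.45 ± 0.08 (SE, adjusted p = 1.07e-05, 1.42e-04, 2.40e-04 and 5.48e-04). For the first 4 the value means a fall in COMBO beyond the sum of the single agents. For PSME1 it means a rise smaller than that sum, since each agent alone raised it to the COMBO level. PSME2 had the largest value, -0.63 ± 0.13 (SE, adjusted p = 0.00177).

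For PSMG1 the interaction was -0.10 ± 0.10 (SE, adjusted p = 0.548) and for PSMD12 0.01 ± 0.08 (SE, adjusted p = 0.961), so that a departure of their COMBO falls from the sum of the single-agent falls was not detectable. Of the chaperones 1 of 7 was called (PSMD9, -0.21 ± 0.07 SE, adjusted p = 0.0372, lost in 17 of 18 alternatives), a share near the 16.5% of all genes. Of the core 7 of 14 genes were called and of the cap 7 of 17, and the difference between these groups was not tested.

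**Figure D4:**
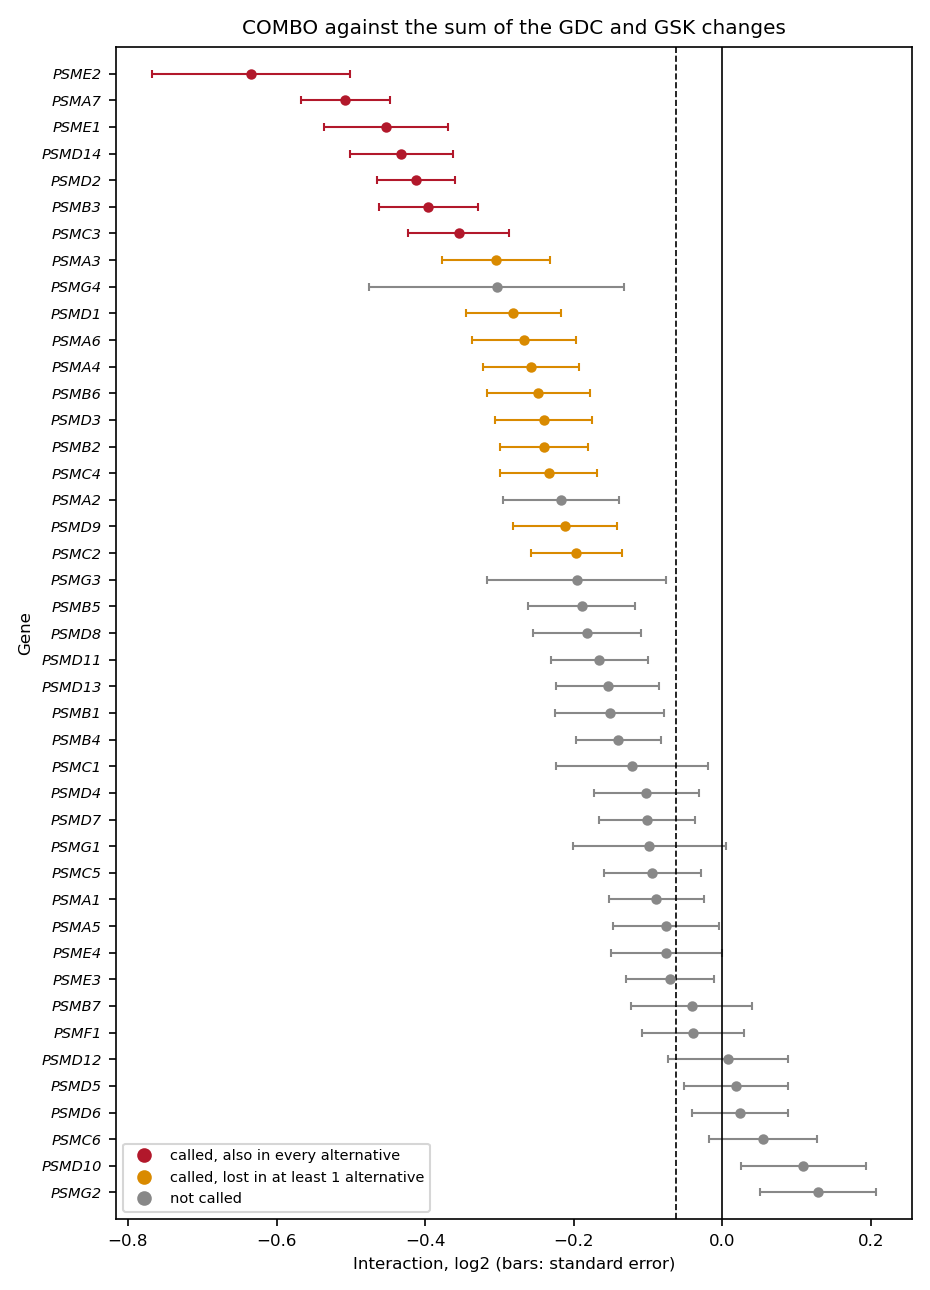
Interaction of each of the 43 tested members (x axis, log2, with standard error), ordered from the most negative at the top. Red points were called in the fit reported and in all 18 alternatives, orange points lost the call in at least 1, and the dashed line is the median of all genes at -0.063.

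The genes around the proteasome were taken from lists. NFE2L1, the transcription factor that drives subunit genes when proteasome activity is low, had 216, 224 and 217 CPM with DMSO, 225, 229 and 227 with GDC, 341, 348 and 341 with GSK, and 300, 311 and 308 with COMBO. It was higher in GSK and COMBO (0.65 ± 0.04 and 0.49 ± 0.04 SE, adjusted p = 7.62e-12 and 3.42e-10), while subunit genes were lower in the same libraries. Its GDC change was 0.05 ± 0.04 (SE, adjusted p = 0.298). NFE2L2, a related factor of the oxidative stress response, was lower in each treated arm, from 104 to 107 CPM in DMSO to 70.7 to 73.4 CPM in COMBO (-0.55 ± 0.05 SE, adjusted p = 1.57e-09). It overlaps AGPS and HNRNPA3.

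Of 7 genes on the list of such factors and their activators, 2 were higher and 5 lower in COMBO, against 43.3% and 39.2% of all genes tested. MAFF, a small partner of NFE2L1, had 1.16 to 1.89 CPM in DMSO and 3.83 to 5.41 CPM in COMBO (1.58 ± 0.20 SE, adjusted p = 3.01e-07). POMP, which helps the beta ring mature, was lower in COMBO (-0.58 ± 0.05 SE, adjusted p = 1.48e-09), at 214 to 253 CPM against 350 to 353 CPM in DMSO.

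The immunoproteasome genes, which replace the cutting subunits in interferon-treated and immune cells, went the other way in part. PSMB8 had 3.79, 2.82 and 2.36 CPM with DMSO, 5.48, 4.0 and 4.16 with GDC, 9.34, 9.64 and 9.49 with GSK, and 9.11, 10.8 and 10.6 with COMBO (1.89 ± 0.15 SE in COMBO, adjusted p = 2.87e-10). PSMB9 was at 0.105 to 0.337 CPM in DMSO and 1.57 to 1.97 CPM in COMBO (2.65 ± 0.31 SE, adjusted p = 1.09e-07). They overlap each other on chromosome 6, so that their reads may be shared. PSMB10 was lower in COMBO (-0.48 ± 0.10 SE, adjusted p = 2.54e-04), from 11.8 to 14.3 CPM in DMSO to 8.74 to 10.6 CPM.

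**Figure D5:**
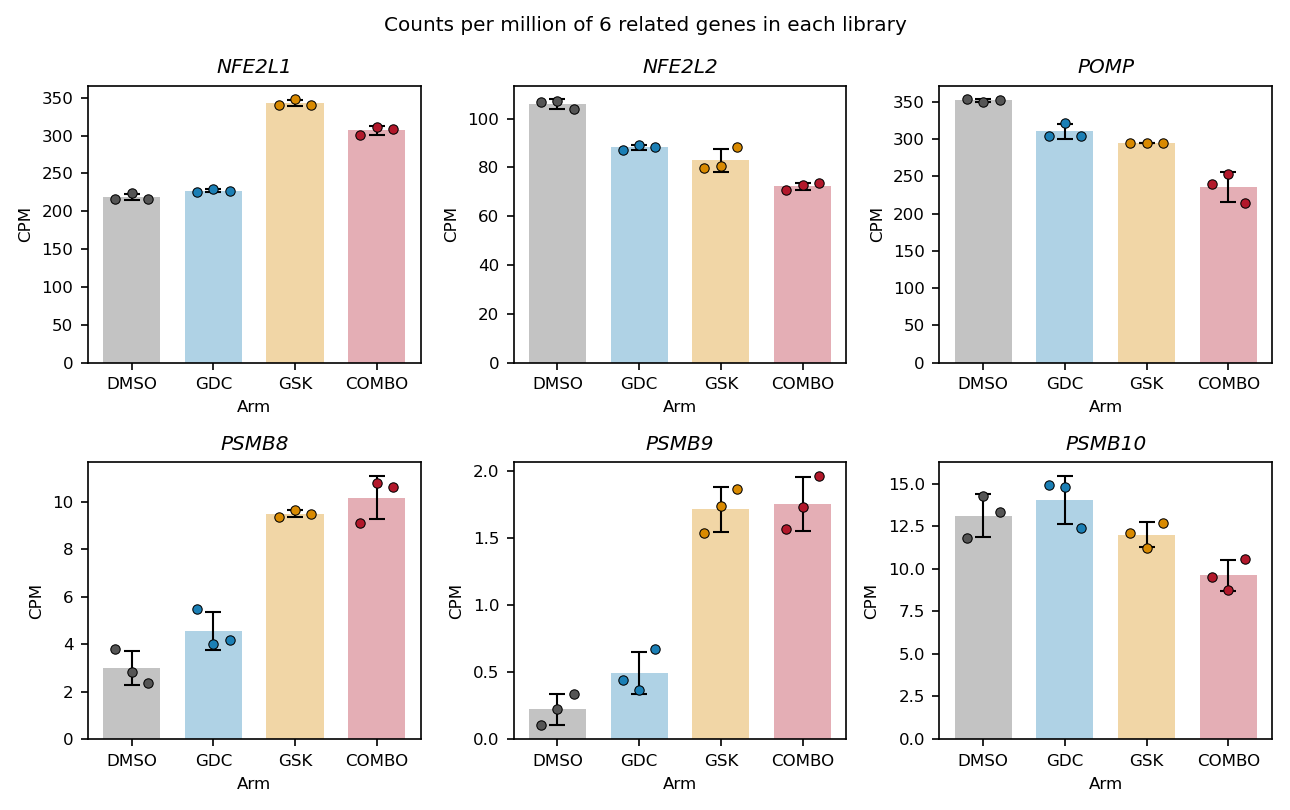
CPM (y axis, from 0, with a scale of its own in each panel) of 6 related genes in the 4 arms (x axis). Points are libraries, bars are means and error bars SD (n = 3). NFE2L1 and PSMB8 are higher in GSK and COMBO, and PSMB9 reaches 1.97 CPM at most.

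Of 6 further cap subunits and cap-bound proteins, 4 were lower in COMBO, where 39.2% of all genes tested were. UCHL5, a deubiquitinase of the cap, changed most, from 94.4 to 100 CPM in DMSO to 35.2 to 43.1 CPM (-1.34 ± 0.07 SE, adjusted p = 6.22e-13). Among 7 genes that carry substrates to the proteasome, 6 were lower and 1, SQSTM1, higher, against 39.2% and 43.3% of all genes. Of 6 ubiquitin and activating-enzyme genes, 3 were lower, with a median of -0.11, and UBA6, an E1 enzyme, changed most (-0.55 ± 0.06 SE, adjusted p = 2.28e-08). This share of lower genes is near the 39.2% of all genes. These lists were written with earlier results of the data known, and their counts are descriptions.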

How the data were processed

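The deposited values were raw read counts per gene, 1 list per library. Per the methods the authors aligned reads to hg38 with STAR and counted them with HTSeq; versions, annotation and use of strand are not given in the sources used here. Each list ended in 5 summary lines, left out of library sizes.

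Counts were scaled by TMM and filtered with filterByExpr in edgeR 4.0.16 (R 4.3.3). The quasi-likelihood test was fitted to the 12 libraries with a coefficient per arm, two-sided, with Benjamini-Hochberg adjustment over all genes tested. CPM used TMM library sizes. DESeq2 1.42.0 was an alternative. Common biological variation was 0.0499, and no libraries were duplicates. The fit was tested on simulated data. Coordinates and overlaps came from GENCODE 44.

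Members and lists were chosen with earlier results of these data known, and marker lists were added after the data were seen. Named members were the catalytic subunits, the 2 largest and the smallest COMBO change per role, members called in opposite directions, the 5 smallest adjusted p of the interaction and members not tested; of related lists, the immunoproteasome genes, NFE2L1, NFE2L2, POMP and the largest change of each other list. Some items that these rules name are not reported here.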

Additional observations from a re-analysis of the deposited data

Results flagged for a closer look

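The effect of GDC-0941 differed between cells with and without GSK126 in 12 of the named members. The test was the interaction term of the edgeR quasi-likelihood fit with Benjamini-Hochberg adjustment. The count of 12 is partly set by selection. PSMA7, PSMD2, PSMD14, PSMB3 and PSME1 were named at least in part for a small adjusted p of this term, and PSME2 after its values were seen. PSMA3, PSMB2, PSMC2 and PSMC3 were named for a large COMBO change, as in part were PSMA7 and PSMD14. The COMBO level is part of the interaction, so choosing large COMBO falls favours negative values. Over all tested members 17 of 43 were negative, against 16.5% of all genes tested. The interaction was -0.51 for PSMA7, -0.41 for PSMD2, -0.43 for PSMD14, -0.40 for PSMB3, -0.45 for PSME1, -0.35 for PSMC3 and -0.63 for PSME2, and these calls held in the 18 alternatives run. It was -0.31 for PSMA3 (adjusted p = 0.00493), lost in 7 of the 18 alternatives, and -0.24 for PSMB2 (adjusted p = 0.00680), lost in 10. It was -0.25 for PSMB6 (adjusted p = 0.0142), lost in 12, -0.20 for PSMC2 (adjusted p = 0.0265), lost in 14, and -0.21 for PSMD9 (adjusted p = 0.0372), lost in 17.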

How the results depend on the processing

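Of 3728 values of single genes under the alternatives, 3603 kept their side of the threshold, 104 lost the call and 20 gained it. In 1 a called value changed direction: PSMD13 in GSK, 0.033 under library totals. Values called in neither fit were counted as kept whatever their direction, such as PSMD13 in GDC, from -0.10 to 0.0098. A change of scale alone moves all genes by nearly the same amount. The members' median therefore kept its distance from that of all genes with TMM, DESeq2 size factors or library totals in edgeR. This is fixed by the method and is no check of the scaling. This distance was -0.27 in GDC, -0.47 in GSK, -0.90 in COMBO, -0.61 against GDC, -0.42 against GSK and -0.12 for the interaction. Over other settings it varied, in COMBO from -1.07 with no filter to -0.85 at 1 CPM. The members' median itself moved by more than the replicate SD of 0.021 as follows, with the cause not tested. In GDC it was -0.29 in DESeq2 and with its size factors, -0.22 under library totals, -0.31 with no filter and -0.28 with a mean of at least 1 CPM. In GSK it was -0.45 in DESeq2 and with its size factors, -0.26 under library totals, where 2 members and 49.2% of all genes were higher, and -0.49 with no filter. In COMBO it was -0.88 in DESeq2, -0.87 with its size factors and with only the arms compared, -0.63 under library totals, -0.89 with no filter and -0.81 at 1 CPM. Against GDC it was -0.42 under library totals, with 1 member and 48.5% of all genes higher, and -0.53 at 1 CPM. Against GSK it was -0.38 under library totals, -0.40 with no filter and at 1 CPM, and -0.41 with only the arms compared. The interaction's was -0.14 in DESeq2 and with its size factors, -0.088 with no filter, where 7 members and 6.62% of all genes were lower, and -0.12 at 1 CPM.

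Without single libraries the medians ranged from -0.31 to -0.26 in GDC, -0.46 to -0.40 in GSK, -0.89 to -0.84 in COMBO, -0.61 to -0.55 against GDC, with 0 to 1 members higher, -0.46 to -0.40 against GSK and -0.18 to -0.079 for the interaction, with 7 to 19 members lower. In these fits 34.9% to 40.2% of all genes were higher against GDC, and 8.86% to 15.7% were lower for the interaction. With the replicate letter as a block, 35 members were lower in GDC, 40 in GSK, 42 in COMBO, 42 against GDC, 39 against GSK and 17 for the interaction. The shares of all genes lower were 19.4%, 35.7%, 39%, 37.8%, 26.4% and 15.8% in the same order. Over 18 pairs of libraries with the same letter, r of their deviations was -0.084 to 0.19, over 0.1 in 2, both of GDC with COMBO. Pairs of different letters were not compared, so these values cannot decide whether the letters pair the libraries. Depth sets no limit on the called members, all above 6 CPM on average, but leaves PSMA8 and PSMB11 unmeasured.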
